A study of Mus musculus with 21 samples.

Results

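The small nucleolar RNA (snoRNA) host long noncoding RNAs were read out across all 7 groups of the series. They are Gas5, Snhg1, Snhg3, Snhg5, Snhg6, Snhg8, Snhg11 and Snhg12, taken from the deposited log2 expression table by their gene symbols. All 8 were among its 20900 genes, and all 8 passed the filter on low values that left 14666 genes for testing. The data were RNA-seq libraries from E14 cells, a mouse embryonic stem cell (ESC) line of the 129 strain grown in serum with leukaemia inhibitory factor. The 7 groups held 3 libraries each: untreated cells at 0 h, cells given 1 µM BMH-21 for 2, 4 or 8 h, and cells given 1 µM CX-5461 for 2, 4 or 8 h. No genetic change is named for any group. Both compounds are small molecules known to block RNA polymerase I, which makes the large ribosomal RNA precursor. The 0 h libraries served as control for both inhibitors, and no untreated libraries were matched to the later times.

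A snoRNA host gene carries snoRNAs inside its introns, and the snoRNAs are cut out of the spliced-out intron. Box C/D snoRNAs guide ribose methylation and box H/ACA snoRNAs guide pseudouridylation, mostly of ribosomal RNA, so that these genes belong to the machinery of ribosome production. The spliced host RNA that remains often holds only short reading frames, and for Gas5 and several relatives it is known to be removed by nonsense-mediated decay when ribosomes translate it. Many host transcripts start within a run of pyrimidines, as the mRNAs of ribosomal proteins do. The values below are levels of host RNA at steady state, from which synthesis and decay cannot be told apart.

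The genes lie on 6 chromosomes of the GRCm38 mouse genome (GENCODE M21 annotation). Gas5 is at chr1:161034422-161038539 on the plus strand and Snhg6 at chr1:9941959-9944118 on the minus strand. Snhg11 is at chr2:158375638-158386145 (plus) and Snhg8 at chr3:123507552-123508404 (minus). Snhg12 and Snhg3 lie near each other at chr4:132308623-132311024 (plus) and chr4:132348014-132353686 (minus). Snhg5 is at chr9:88521050-88522929 (minus) and Snhg1 at chr19:8723475-8726443 (plus). GENCODE typed 5 of them as processed transcripts and Snhg6 and Snhg12 as long intergenic noncoding RNAs. It typed Snhg11 as protein coding, against the label, while RefSeq lists it as noncoding.

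Together the 8 genes held 29 distinct symbols that GENCODE types as snoRNA, of which 9 were in Gas5, 8 in Snhg1, 4 in Snhg12, 2 each in Snhg3, Snhg5 and Snhg11, and 1 each in Snhg6 and Snhg8. The table had rows for 7 of these snoRNAs. A selection is printed below from the GRCm38 sequence, to show what the hosts carry. Capitals mark the box C core (TGATGA) and box D (CTGA) of the C/D snoRNAs and the ACA box of Snora61. Snord47 lies in Gas5 (chr1:161038082-161038158), Snord87 in Snhg6 (chr1:9942463-9942549), and Snord99 and Snora61 in Snhg12 (chr4:132310691-132310764 and chr4:132310240-132310369).
Snord47: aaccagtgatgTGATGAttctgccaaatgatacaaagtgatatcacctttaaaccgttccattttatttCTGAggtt
Snord87: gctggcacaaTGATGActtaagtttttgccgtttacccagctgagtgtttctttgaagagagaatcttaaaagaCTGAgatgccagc
Snord99: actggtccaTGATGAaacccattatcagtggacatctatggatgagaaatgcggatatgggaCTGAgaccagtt
Snora61: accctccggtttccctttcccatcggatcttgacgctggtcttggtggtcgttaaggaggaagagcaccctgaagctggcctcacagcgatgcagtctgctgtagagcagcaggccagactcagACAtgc

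The start sites were compared next, because 7 of the hosts moved together in the values that follow. RefSeq promoter windows of 300 bases (GRCm38.p6) were matched for 7 of the 8 genes, with 2 start sites for Gas5. Snhg6 had no entry. The 50 bases from 30 before the annotated start are shown. A run of at least 5 pyrimidines beginning with C is in capitals where any part of it lay within 20 bases of the start. Gas5 is shown at its second start (chr1:161035136-161035185, plus), with Snhg12 (chr4:132308648-132308697, plus), Snhg8 (chr3:123508317-123508366, minus), Snhg5 (chr9:88522878-88522927, minus), Snhg1 (chr19:8723457-8723506, plus) and Snhg11 (chr2:158375683-158375732, plus).
Gas5: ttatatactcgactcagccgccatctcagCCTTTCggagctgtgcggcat
Snhg12: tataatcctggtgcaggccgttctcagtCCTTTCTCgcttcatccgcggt
Snhg8: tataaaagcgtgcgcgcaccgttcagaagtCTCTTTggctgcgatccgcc
Snhg5: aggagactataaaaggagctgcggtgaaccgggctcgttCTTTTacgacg
Snhg1: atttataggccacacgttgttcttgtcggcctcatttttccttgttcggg
Snhg11: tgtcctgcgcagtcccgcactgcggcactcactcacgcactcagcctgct

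Such a run was found in 5 of the 8 windows, those of Snhg3, Snhg5, Snhg8, Snhg12 and the second start of Gas5. The first start of Gas5, Snhg1 and Snhg11 had none. Snhg1 held tttttcctt just after its start, a run of pyrimidines that begins with T and so was not counted. The run is a common feature, present in 52.6% of all 32851 RefSeq windows. The run covered 8 bases in Snhg12, 6 in Gas5 and Snhg8, and 5 in Snhg3 and Snhg5. The E-box CACGTG, a palindrome that reads the same on both strands, was in 0 of the 8 windows of these genes and in 7.2% of all windows. Both searches describe letters only, and say nothing of binding.

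Facts common to all libraries set the scale of the values. Whole reads could be recovered from the deposited values, and gave 46604397 to 62812641 reads per library. The labels do not say whether replicates were separate cultures, so p-values measure the spread between these samples, which may be technical. Every replicate pair differed beyond counting error (chi-square divided by its degrees of freedom, 2.58 to 26.0). The highest values belonged to the pairs that held replicate 2 of BMH-21 at 8 h. All 10 ESC markers were well expressed in control cells, from 7.60 (Klf4) to 10.66 (Pou5f1) on the log2 scale. Their summed linear level was 6580 to 7505 in control libraries and 3071 to 6365 in treated ones, and its part in the results was not tested. Of 7 fibroblast markers 4 were above 0, with Thy1 highest at 4.48 and Lum lowest at -5.48, and of 6 extraembryonic endoderm markers 4 were above 0, with Gata4 highest at 1.72. In bulk RNA, fewer cells of a type and less RNA per cell cannot be told apart.

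The scaling of the libraries matters for every direction given here. The deposited values carry a factor per library, from 0.832 to 1.375. After 8 h, BMH-21 libraries had factors of 1.209 to 1.375, against 0.888 to 0.943 for CX-5461. Factors computed by median ratios from the genes ran from 0.945 to 1.103. Centring each library on the median of its tested genes removed -0.08, -0.15 and -0.21 from the log2 differences at 2, 4 and 8 h of BMH-21, with CX-5461 losing -0.15, -0.16 and 0.22. Values are therefore given as deposited, with the centred or median-ratio value beside them where it differs in a way that changes the reading.

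In untreated cells Gas5 had the highest level per gene, with 7.38, 7.43 and 7.13 in the 3 libraries, a mean of 7.31 ± 0.16 (SD, n = 3). Snhg5 followed at 6.93 ± 0.21, Snhg1 at 6.58 ± 0.16, Snhg11 at 6.33 ± 0.14, Snhg12 at 5.49 ± 0.13, Snhg3 at 5.18 ± 0.14, Snhg8 at 4.60 ± 0.17 and Snhg6 at 4.18 ± 0.15 (SD, n = 3 each). Levels of different genes can be compared only per length. Per kilobase of all annotated exons, the log2 level was highest for Snhg5 (6.14), followed by Gas5 (5.40), Snhg3 (5.20), Snhg1 (5.01), Snhg8 (4.83), Snhg12 (4.23), Snhg6 (3.98) and Snhg11 (3.24). The closest neighbours in this order were Gas5 and Snhg3 (0.20 apart), Snhg3 and Snhg1 (0.20) and Snhg1 and Snhg8 (0.18), where the SD between libraries was 0.14 to 0.17. The order of each pair of neighbours was the same in all 3 control libraries, and the differences were not tested. The order depended on the length used: by the median annotated transcript, Gas5 came first (7.98) and Snhg6 last (5.02).

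**Figure D1:**
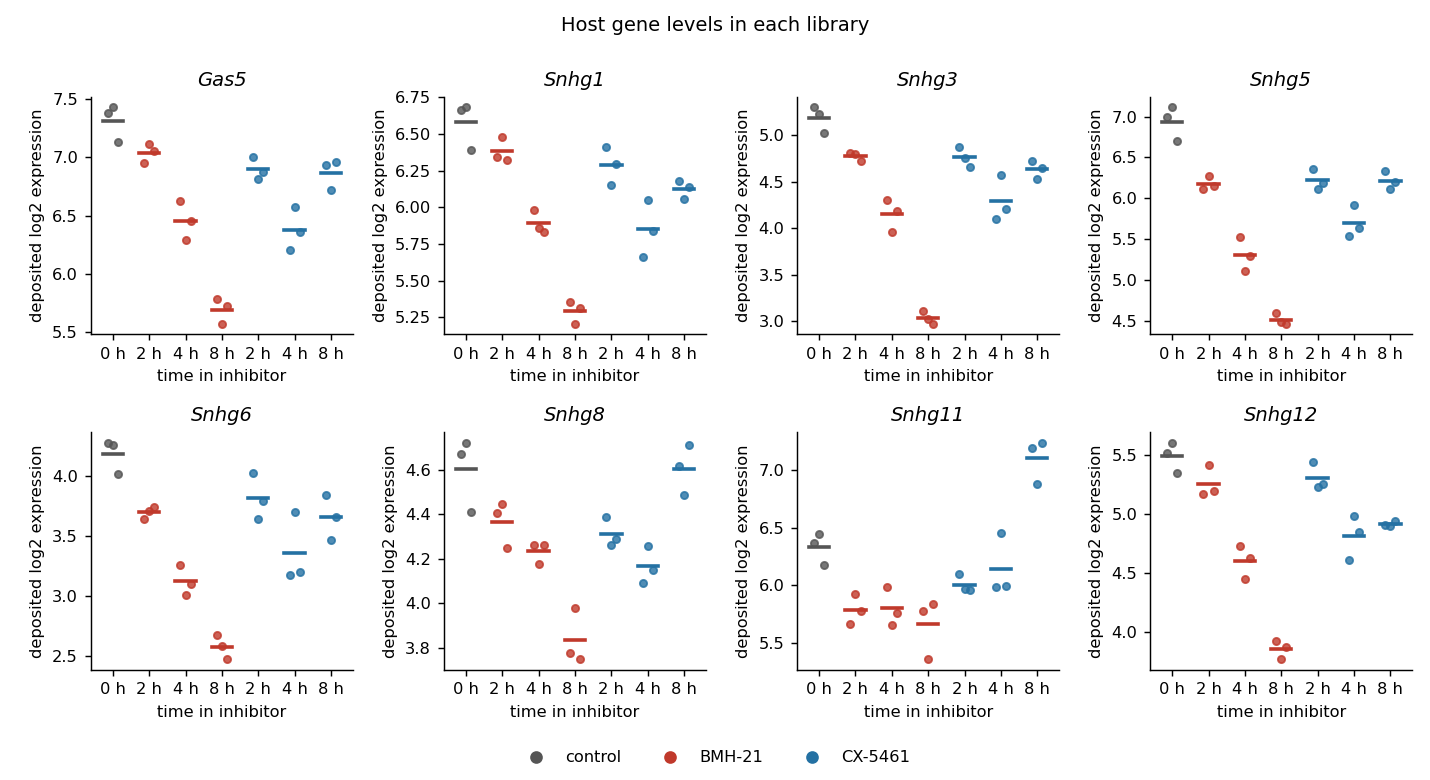
Deposited log2 expression (vertical axis) of the 8 host genes in each of the 21 libraries, by group and time in inhibitor; points are libraries and bars are means of 3. In 7 panels the BMH-21 means step down from 2 to 8 h, while Snhg11 stays near 5.7 in BMH-21 and is highest in CX-5461 at 8 h, near 7.1.

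BMH-21 lowered every host RNA, and the difference grew with time for all but Snhg11. At 2 h 4 of the 8 were lower than control (Snhg3, Snhg5, Snhg6 and Snhg11), at 4 h all 8, and at 8 h all 8, with none higher as deposited (limma on all 21 libraries, Benjamini-Hochberg adjusted p under 0.05 over 14666 genes). The median difference of the 8 was -0.34, -0.87 and -1.61 on the log2 scale, beside -0.07, -0.21 and -0.40 over all genes tested. Of all genes tested, the share called lower was 11.2%, then 44.9%, then 56.9%. A lower call was thus common among all genes at 4 and 8 h, and the count of hosts called says less there than the size of their differences. The libraries of the 8 genes did not overlap those of control for 5, 8 and 8 of them at the 3 times, beside 19.5%, 42.0% and 57.1% of all genes. Called higher were 8.48%, 22.1% and 24.5% of all genes. Centring and median ratios each raised the 2 h count to 6, where 17.5% and 15.7% of all genes were lower.

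CX-5461 lowered most of these RNAs at 2 and 4 h, with medians near those of BMH-21, and then the courses parted. At 2 h 7 of the 8 were called lower (all but Snhg12), at 4 h 7 (all but Snhg11), and at 8 h 6 were lower while Snhg11 was higher and Snhg8 was not called. The median difference was -0.34, -0.78 and -0.49, beside -0.18, -0.28 and 0.11 over all genes tested. Background shares were 20.5%, 51.2% and 14.3% lower over the 3 times, and 7.45%, 19.8% and 35.1% were called higher. The libraries did not overlap those of control, on the lower side, for 5, 7 and 6 of the genes, beside 29.5%, 47.6% and 19.5% of all genes, and at 8 h on the higher side for 1, beside 42.8%. The 2 h count was the least stable: it was 4 after centring and 3 with median ratios, where 17.8% and 12.6% of all genes were lower, and 3 without replicate 1 or 2 of the control or replicate 2 or 3 of CX-5461 at 2 h. Gas5, Snhg3 and Snhg5 were lower under all 3 scalings.

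**Figure D2:**
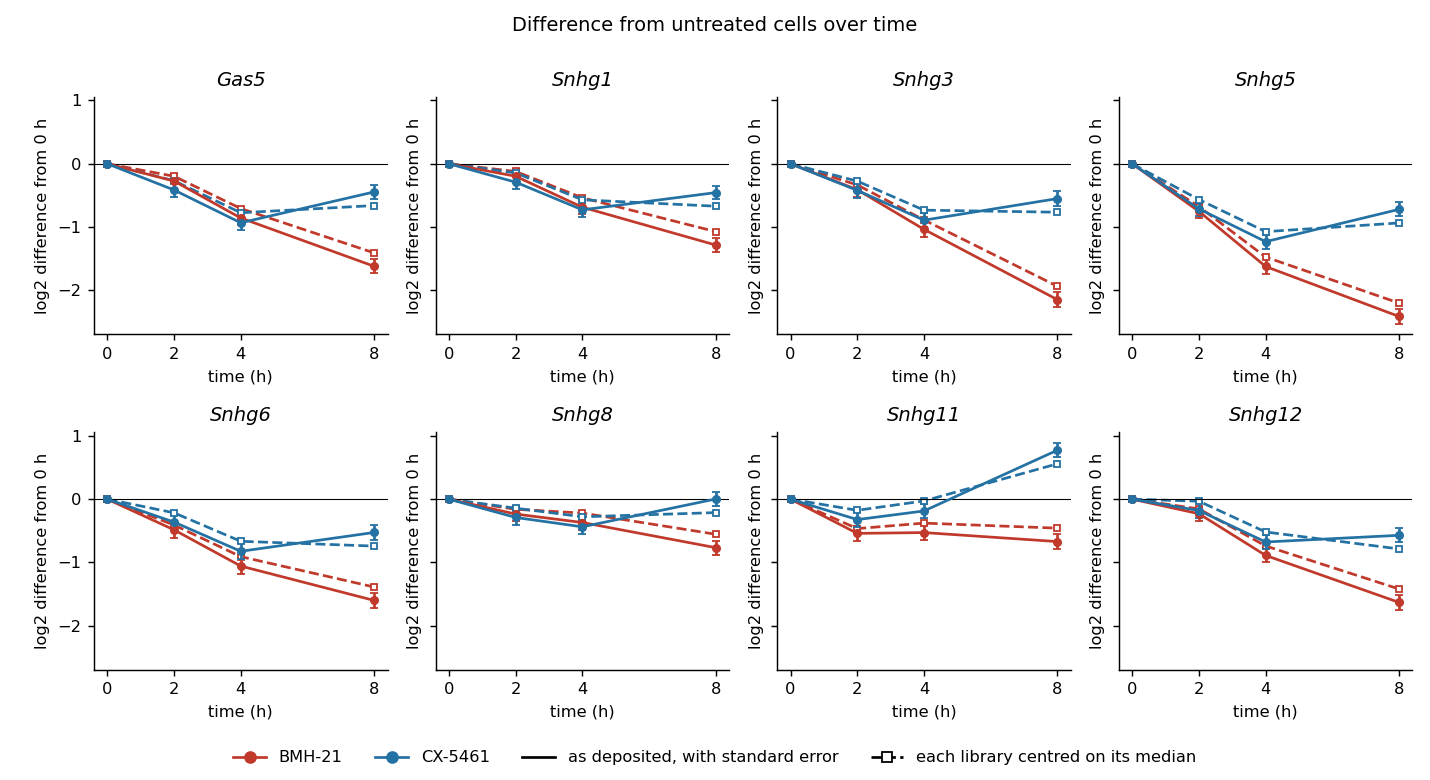
Log2 difference from the 0 h control (vertical axis) against time in hours, for BMH-21 (red) and CX-5461 (blue); solid lines are deposited values with the standard error, dashed lines are values after centring each library on its median. In deposited values both inhibitors run together to 4 h for most genes. At 4 h 2 of the 8 were called lower in BMH-21 than in CX-5461 as deposited, and 4 after centring. At 8 h the BMH-21 line is lowest in all 8 panels, down to -2.41 for Snhg5.

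Among hosts of box C/D snoRNAs, Snhg5, which carries the Snord50 pair, fell the most. Its level was 6.99, 7.11 and 6.70 in the control libraries, and with BMH-21 6.12, 6.28 and 6.15 (2 h), 5.53, 5.11 and 5.30 (4 h) and 4.60, 4.48 and 4.47 (8 h). Each step was complete, with no library of a later time reaching one of an earlier time. CX-5461 gave 6.35, 6.12 and 6.19 at 2 h, 5.54, 5.92 and 5.64 at 4 h, and 6.33, 6.11 and 6.20 at 8 h, all below control. The log2 difference from control was -0.75, -1.62 and -2.41 for BMH-21 (SE 0.11, adjusted p = 2.0e-08, 3.1e-27 and 1.9e-42 by limma), which leaves 0.188 of the control level at 8 h. For CX-5461 it was -0.71, -1.23 and -0.72 (adjusted p = 1.0e-07, 6.4e-19 and 1.7e-08), or 0.607 of control at 8 h.

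Gas5, the host with the most annotated snoRNAs, was lower after BMH-21 at 6.95, 7.12 and 7.05 (2 h), 6.62, 6.29 and 6.46 (4 h) and 5.78, 5.57 and 5.72 (8 h). After CX-5461 it was at 7.01, 6.82 and 6.87 (2 h), 6.21, 6.58 and 6.36 (4 h) and 6.93, 6.72 and 6.96 (8 h). No treated library reached the lowest control library, at 7.13, although the highest BMH-21 library, at 2 h, came close to it. The log2 difference was -0.27 at 2 h of BMH-21, which was not called as deposited (adjusted p = 0.062, limma) and was called after centring (-0.20, adjusted p = 0.0024). It reached -0.86 at 4 h and -1.62 at 8 h (SE 0.11, adjusted p = 7.4e-12 and 1.6e-28). In CX-5461 the differences were -0.41, -0.93 and -0.44 (adjusted p = 0.002, 2.4e-13 and 2.7e-04).

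Snhg1, also a host of C/D snoRNAs, had the smallest fall of this class at 8 h of BMH-21. Its control libraries were at 6.66, 6.68 and 6.39, those of BMH-21 at 8 h at 5.35, 5.21 and 5.32, and those of CX-5461 at 8 h at 6.18, 6.05 and 6.14. The 3 groups did not overlap. Its log2 differences were -0.20, -0.69 and -1.29 with BMH-21, where the 2 h value was not called (adjusted p = 0.21, limma). With CX-5461 they were -0.29, -0.73 and -0.46, all called as deposited. The 2 h CX-5461 value was not called with median ratios (-0.11, adjusted p = 0.089, limma).

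Snhg6, host of Snord87 and the least abundant of the 8 per gene, went from 4.27, 4.26 and 4.01 in control to 2.68, 2.58 and 2.48 with 8 h of BMH-21. With 8 h of CX-5461 it was at 3.84, 3.47 and 3.66. These groups too stood clear of each other. BMH-21 gave log2 differences of -0.48, -1.06 and -1.60, and CX-5461 of -0.36, -0.82 and -0.53 (SE 0.12), all past the threshold as deposited. After centring, the 2 h CX-5461 value missed it (-0.22, adjusted p = 0.058).

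Among hosts of box H/ACA snoRNAs, Snhg3, which carries Snora73a and Snora73b, fell nearly as far as Snhg5. Its control libraries were at 5.30, 5.23 and 5.02, and BMH-21 took it to 4.81, 4.79 and 4.72 at 2 h, 4.30, 3.95 and 4.18 at 4 h, and 3.11, 3.02 and 2.97 at 8 h. The log2 differences were -0.41, -1.04 and -2.15 (SE 0.11, adjusted p = 0.0046, 2.1e-14 and 1.1e-36 by limma), which leaves 0.226 of control at 8 h. CX-5461 gave 4.88, 4.76 and 4.65, then 4.10, 4.57 and 4.21, then 4.72, 4.53 and 4.64. Its differences were -0.42, -0.89 and -0.55, and all CX-5461 libraries lay below the control libraries.

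Snhg8, host of Snora24, responded least among the 7 that fell in step. Control libraries were at 4.67, 4.72 and 4.41, BMH-21 libraries at 4.41, 4.44 and 4.25 (2 h), 4.26, 4.18 and 4.26 (4 h) and 3.78, 3.98 and 3.75 (8 h). CX-5461 libraries were at 4.39, 4.26 and 4.29, then 4.09, 4.26 and 4.15, and at 8 h at 4.62, 4.49 and 4.71, within the control range. The log2 differences were -0.24 (adjusted p = 0.14), -0.37 (0.0027) and -0.77 (9.3e-10) for BMH-21 by limma. For CX-5461 they were -0.29, -0.44 and 0.00, the last with an adjusted p of 0.98 as deposited, -0.21 after centring (adjusted p = 0.043) and -0.09 with median ratios (0.35). Its 4 h calls did not hold with median ratios either (-0.17 for each inhibitor, adjusted p = 0.097 and 0.094). Its 2 h call in CX-5461 held neither after centring (-0.14, adjusted p = 0.26) nor with median ratios (-0.10, adjusted p = 0.43).

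Snhg12 carries snoRNAs of both classes. It went from 5.52, 5.61 and 5.35 in control to 4.73, 4.45 and 4.63 at 4 h and 3.93, 3.77 and 3.87 at 8 h of BMH-21. After CX-5461 it was at 4.61, 4.98 and 4.85 at 4 h and 4.91, 4.90 and 4.94 at 8 h. All of these were below control, and the 8 h CX-5461 libraries lay within the range of the 4 h ones. BMH-21 gave log2 differences of -0.23, -0.89 and -1.63, against -0.18, -0.68 and -0.57 with CX-5461. Neither 2 h value was called as deposited (adjusted p = 0.15 and 0.2 by limma). The 2 h BMH-21 value was called after centring (-0.15, adjusted p = 0.025) and with median ratios (-0.14, adjusted p = 0.041). The 2 h CX-5461 value was called under neither.

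Snhg11, known as an abundant RNA of neurons, did not follow the others. Its control libraries were at 6.37, 6.44 and 6.17. BMH-21 gave 5.67, 5.93 and 5.77 at 2 h, 5.99, 5.66 and 5.76 at 4 h, and 5.78, 5.36 and 5.84 at 8 h, 3 sets that overlap each other and lie below control. The fall was there by 2 h (-0.54, adjusted p = 1.1e-04) and changed little at 4 h (-0.53) and 8 h (-0.67, adjusted p = 9.8e-08, limma).

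In CX-5461 Snhg11 was at 6.10, 5.97 and 5.96 at 2 h, 5.99, 6.45 and 5.99 at 4 h, and 7.19, 6.88 and 7.24 at 8 h. The 8 h libraries were all above the control libraries. The log2 difference was -0.32 at 2 h (adjusted p = 0.027, 0.059 after centring), -0.19 at 4 h (not called) and 0.77 at 8 h (SE 0.12, adjusted p = 4.2e-09), a level 1.71 times control. It remained higher after centring (0.56, adjusted p = 2.1e-07) and with median ratios (0.68, adjusted p = 1.2e-08). Of all genes tested, 35.1% were called higher in this comparison as deposited.

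A measure free of library scaling is the difference between a host and the mean of the other 7 in the same library. For Snhg11 it was 0.54, 0.58 and 0.60 in control. It rose to 1.03, 0.97 and 0.94 at 4 h and 1.60, 1.27 and 1.76 at 8 h of BMH-21, and in CX-5461 to 1.21 ± 0.10 at 4 h (SD, n = 3) and 1.83, 1.70 and 1.92 at 8 h. All of these libraries lay above control, so that Snhg11 gained on the other hosts in both inhibitors, including BMH-21, where its own level was lower. At 2 h it was 0.40 ± 0.08 in BMH-21 and 0.63 ± 0.05 in CX-5461 (SD, n = 3), on either side of the control mean of 0.58.

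Snhg5 moved the other way on this measure. Its lead over the other hosts was 1.26 ± 0.07 in control and shrank to 0.85 ± 0.02, 0.42 ± 0.09 and 0.24 ± 0.04 over the BMH-21 course (SD, n = 3). In CX-5461 it was 0.88 ± 0.02, 0.70 ± 0.01 and 0.80 ± 0.06. Snhg3 dropped from -0.74 ± 0.06 to -1.46 ± 0.06 at 8 h of BMH-21 and -1.01 ± 0.04 at 8 h of CX-5461. Snhg8 went from -1.40 ± 0.01 to -0.54 ± 0.21 and -1.04 ± 0.07. Gas5 went from 1.70 ± 0.01 to 1.58 ± 0.06 and 1.55 ± 0.04. Mean values for control and the same pair of 8 h groups were 0.86, 1.12 and 0.69 for Snhg1, -1.88, -1.98 and -2.13 for Snhg6, and -0.38, -0.52 and -0.68 for Snhg12. For each of these hosts the mean of the others includes Snhg11, whose gain lowers the measure. Small drops, such as that of Gas5, therefore do not show that a host lost ground to the hosts other than Snhg11.

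The correlation of group means describes the same split. Over the 7 groups, Pearson's r between pairs of the 7 hosts other than Snhg11 ran from 0.82 (Snhg8 with Snhg12) to 0.996 (Snhg5 with Snhg6). Snhg11 correlated with the others at 0.34 to 0.73, and at -0.00 to 0.36 after centring. The groups share their control, their libraries and the scaling, and these values are a description of 7 points each.

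The inhibitors were compared directly at matched dose and time. At 2 h none of the 8 hosts differed between BMH-21 and CX-5461 as deposited (0 called by limma, 0 at an unadjusted p under 0.05), where 1.52% of all genes were called lower and 2.47% higher. Differences ran from -0.22 (Snhg11) to 0.14 (Gas5) with an SE of 0.11 to 0.12. Snhg11 was lower in BMH-21 after centring (-0.29, adjusted p = 0.0063) and with median ratios (-0.31, adjusted p = 0.0033), where 7.58% and 9.19% of all genes were. At 4 h Snhg5 (-0.39, adjusted p = 0.0068) and Snhg11 (-0.34, adjusted p = 0.026) were lower in BMH-21, where 8.49% of all genes were. That count was 4 after centring (18.5% of all genes) and 5 with median ratios (23.8%), and fell to 0 without replicate 2 of BMH-21 or of CX-5461 at 4 h and to 1 without replicate 3 of BMH-21.

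At 8 h all 8 were lower in BMH-21 than in CX-5461, with no overlap between the libraries of any of them. The differences were -1.69 for Snhg5, -1.60 for Snhg3, -1.45 for Snhg11, -1.18 for Gas5, -1.07 for Snhg6, -1.06 for Snhg12, -0.83 for Snhg1 and -0.77 for Snhg8 (SE 0.11 to 0.12, adjusted p from 5.3e-28 to 1.3e-09, limma). As deposited, 67.2% of all genes were lower in this comparison, and 69.7% had no overlap on that side. After centring all 8 remained lower (-1.27 for Snhg5 to -0.34 for Snhg8), where 40.6% of all genes were, and with median ratios too (-1.20 to -0.28), where 35.0% were.

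**Figure D3:**
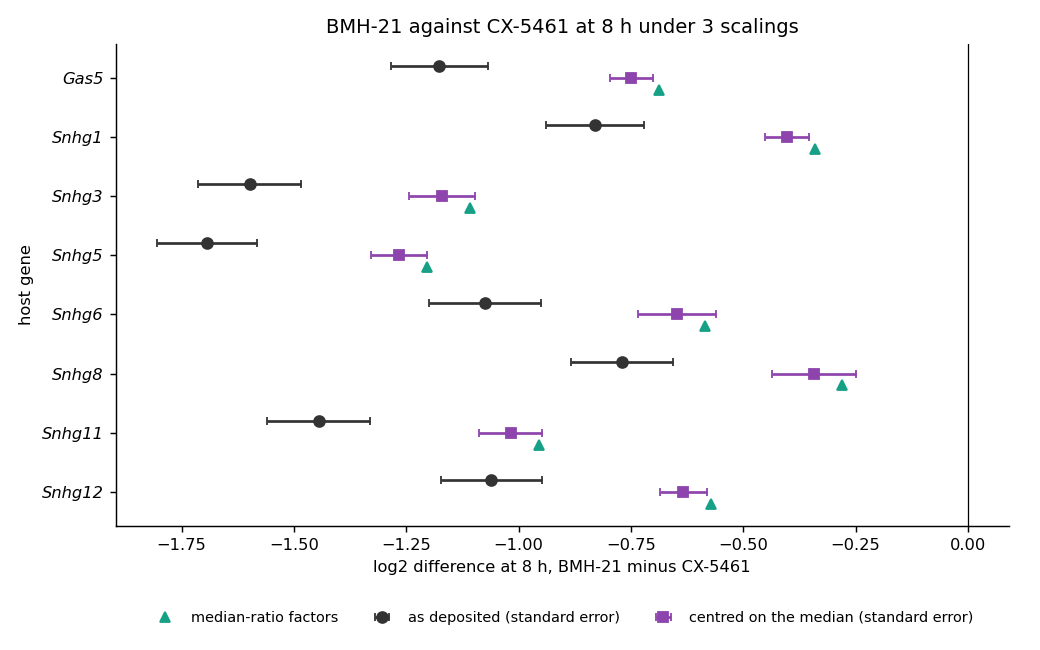
Log2 difference at 8 h between BMH-21 and CX-5461 (horizontal axis) for each host gene, as deposited (black circles), centred (purple squares) and with median-ratio factors (green triangles); bars are standard errors. All points lie below 0, and centring moves each by 0.43 towards it.

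Between 4 and 8 h the hosts went on falling in BMH-21. For 7 of the 8 the 8 h level was called below the 4 h level under all 3 scalings. The differences ran from -1.11 (Snhg3) to -0.40 (Snhg8) as deposited, and from -0.92 to -0.21 for the same genes with median ratios. Of all genes, 37.8% were lower as deposited, beside shares of 42.2% (centred) and 31.2% (median ratios). Snhg11 was the exception (-0.14, adjusted p = 0.29, limma).

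In CX-5461 the deposited values rose over the same interval for 7 of the 8, from 0.27 (Snhg1) to 0.96 (Snhg11), and 58.8% of all genes rose with them. In each of these hosts but Snhg11, most or all of the rise was removed by centring, which took 0.37 from every difference. After it 2 hosts were called higher, Snhg11 (0.59, adjusted p = 2.2e-07) and Gas5 (0.11, adjusted p = 0.048), where 25.8% of all genes were, and Snhg12 was called lower (-0.27, adjusted p = 1.5e-04), where 32.0% were. For Snhg1, Snhg3, Snhg5, Snhg6 and Snhg8 the centred change was between -0.10 and 0.14 and not called. Of these, Snhg5 was called with median ratios (0.15, adjusted p = 0.041), for which the share of all genes is not given in this comparison. The rise of these 5 RNAs between 4 and 8 h thus depends on the scaling. Those of Snhg11, which ended above control, and of Gas5, which stayed below it, were called under all 3 scalings. For Gas5 the rise was 0.12 with median ratios (adjusted p = 0.027, limma). Without replicate 1 of CX-5461 at 4 h, 4 in place of 7 were called higher as deposited. In a test of the difference between the inhibitors over this interval, added after the values had been seen, all 8 were lower in BMH-21 as deposited, where 61.4% of all genes were. After centring all 8 were called, where 36.2% of all genes were, and with median ratios 7, where 26.5% were.

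Other noncoding snoRNA hosts were also lower in most cases. Of 13 listed, 10 were in the table and 7 were tested. BMH-21 lowered 5, 6 and 7 of these 7 at 2, 4 and 8 h, and CX-5461 lowered 4, 7 and 6, with none called higher as deposited. Among all genes the shares called lower were 11.2%, 44.9% and 56.9% in BMH-21, and 20.5%, 51.2% and 14.3% in CX-5461. At 8 h their median log2 difference was -1.50 for BMH-21, beside -0.40 over all genes tested, and -0.32 for CX-5461, beside 0.11. Dancr, a noncoding host RNA, fell the most in BMH-21, from 4.08 to 2.02 (-2.06, adjusted p = 7.5e-33, limma). Snhg4 fell the most at 8 h of CX-5461 (-0.63, adjusted p = 6.5e-06). The 2 h count for CX-5461 was 1 with median ratios, 1 without replicate 1 or 2 of control or replicate 2 of CX-5461, and 2 without its replicate 3. The 2 h count for BMH-21 was 3 without control replicate 1, and the 8 h count for CX-5461 was 3 without control replicate 1 or CX-5461 replicate 2.

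Protein-coding snoRNA hosts, most of them genes of ribosomal proteins and translation factors, had smaller median differences. Of 32 tested, 32 were called lower at 8 h of BMH-21 and 10 at 8 h of CX-5461, with none higher, where 56.9% and 14.3% of all genes were lower. Their median was -0.54 for BMH-21, beside -0.40 over all genes, and -0.14 for CX-5461, beside 0.11. These counts followed the scaling: for BMH-21 31 were lower after centring and 21 with median ratios, and for CX-5461 31 and 27. Of all genes, 51.3% and 41.6% were lower in BMH-21 under these scalings, and 44.7% and 33.7% in CX-5461. Dkc1, the pseudouridine synthase of H/ACA particles and itself a host, fell the most in both inhibitors at 8 h, with differences of -1.53 in BMH-21 (adjusted p = 4.9e-28) and -0.59 in CX-5461 (adjusted p = 4.9e-07, limma).

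Factors of nonsense-mediated decay, the pathway that removes translated host RNAs, were called in both directions. Of 18 tested, 11 were lower and 2 higher at 8 h of BMH-21, where 56.9% of all genes were lower and 24.5% higher. At 8 h of CX-5461 5 were lower and 4 higher, where 14.3% of all genes were lower and 35.1% higher. Their medians were -0.46, beside -0.40 over all genes, and 0.01, beside 0.11. After centring the counts were 11 lower and 4 higher for BMH-21, against 11 lower and 3 higher for CX-5461. With median ratios they were 8 lower and 7 higher, against 9 lower and 4 higher. All genes called higher made up 33.3% after centring and 40.9% with median ratios in BMH-21, and 29.3% and 36.4% in CX-5461. Upf2, a core factor that bridges UPF1 and the exon junction complex, rose in BMH-21 (0.63, adjusted p = 1.1e-07) and in CX-5461 (0.52, adjusted p = 2.3e-05). Upf3b, its partner at the junction, also rose in both, by 0.57 (adjusted p = 1.6e-06) and 0.68 (adjusted p = 5.7e-08, limma). Rbm8a, a subunit of the exon junction complex, fell the most in both, with -1.46 in BMH-21 (adjusted p = 1.2e-26) and -0.49 in CX-5461 (adjusted p = 2.5e-05, limma).

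**Figure D4:**
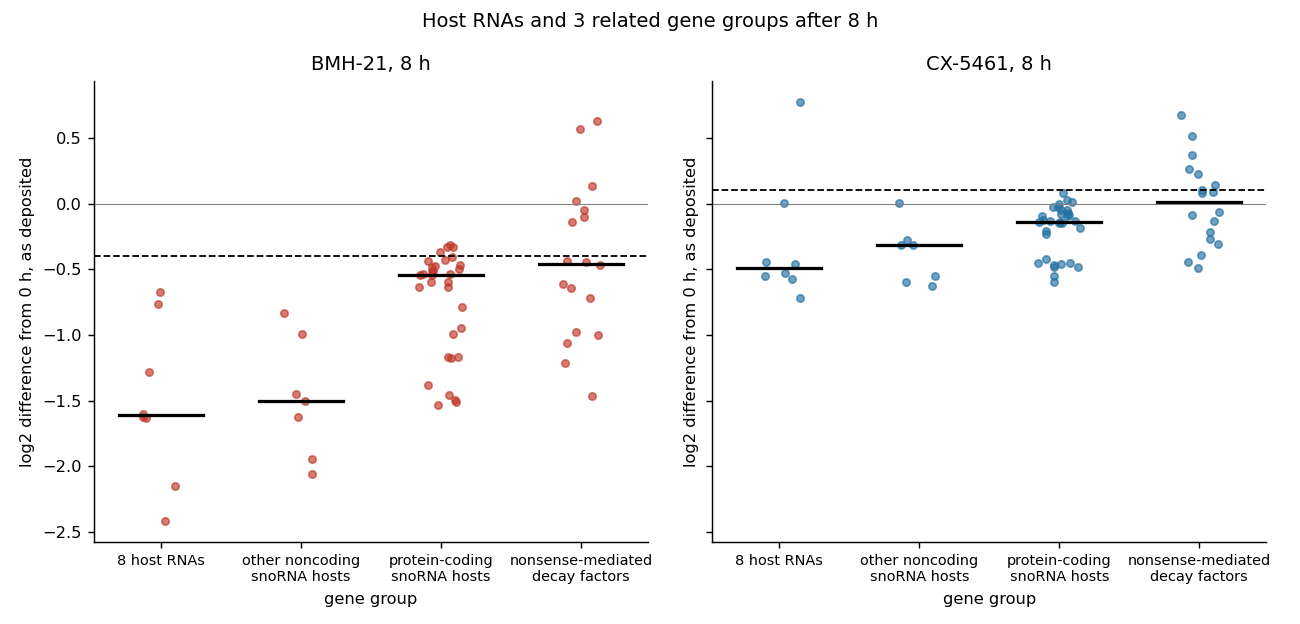
Log2 difference from control at 8 h, as deposited (vertical axis), for each tested gene of the 8 host RNAs and 3 related groups, in BMH-21 (left) and CX-5461 (right); solid bars are group medians and the dashed line is the median of all genes tested. The noncoding hosts lie lowest in BMH-21, with medians of -1.61 and -1.50 against -0.40 for all genes.

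The 7 snoRNA rows inside these genes had few reads, between 5 and 648 per library. Poly(A) selection was used, and 6 of the 7 snoRNAs overlap an exon of some annotated host transcript, so that their reads may come from unspliced or alternatively spliced host RNA and are not a measure of mature snoRNA. Snord87 fell below the filter and was not tested. The other 6 were all lower at 4 and 8 h of BMH-21, where 44.9% and 56.9% of all genes were. At 8 h the log2 differences were -1.87 for Snord47, -1.41 for Snord22, -2.05 for Snora16a, -2.39 for Snora44, -1.82 for Snora61 and -2.01 for Snord99 (adjusted p from 7.8e-25 to 2.8e-15, limma).

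In CX-5461 all 6 were lower at 4 h and 5 at 8 h, where 51.2% and 14.3% of all genes were. Snord22 was the exception at 8 h (-0.15, adjusted p = 0.35, limma). After centring it too was lower (-0.36, adjusted p = 2.5e-04). Read against its host, Snord22 was -2.88 ± 0.03 from Snhg1 in control, -3.01 ± 0.08 at 8 h of BMH-21 and -2.57 ± 0.08 at 8 h of CX-5461 (SD, n = 3). The 3 sets of libraries did not overlap. Snord47 was -5.58 ± 0.14 from Gas5 in control and -6.36 ± 0.12 at 4 h of BMH-21, and -5.82 ± 0.11 and -5.92 ± 0.03 at 8 h of BMH-21 and CX-5461. Within Snhg12, Snora61 was at a distance of -2.48 ± 0.17 in control, -2.67 ± 0.14 at 8 h of BMH-21 and -2.48 ± 0.07 at 8 h of CX-5461. Between control and 8 h of BMH-21 the distance went from -3.97 ± 0.26 to -4.73 ± 0.29 for Snora44, from -3.81 ± 0.25 to -4.23 ± 0.33 for Snora16a and from -4.18 ± 0.22 to -4.55 ± 0.14 for Snord99 (SD, n = 3). These distances were not tested.

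**Figure D5:**
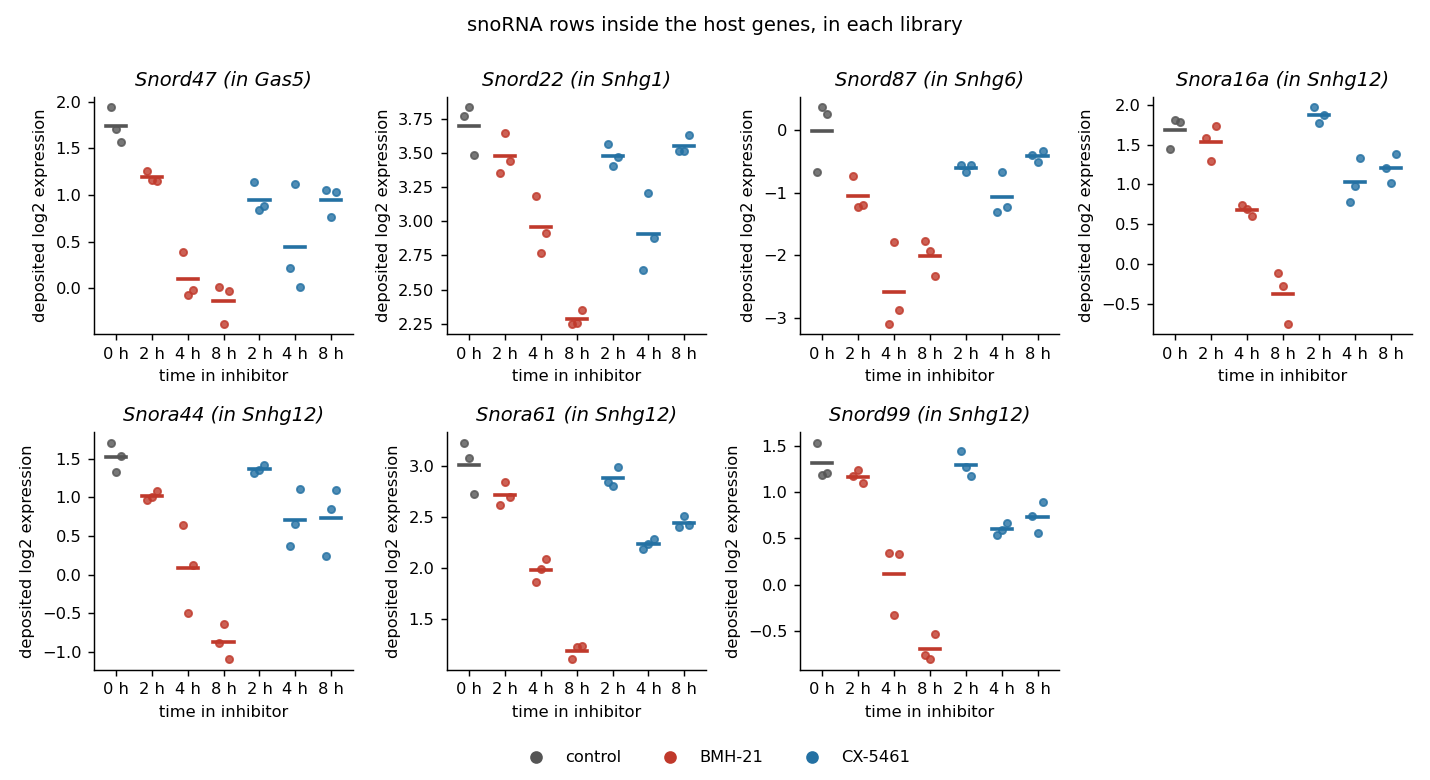
Deposited log2 expression (vertical axis) of the 7 snoRNA rows inside the host genes, in each library, by group and time; points are libraries and bars are means of 3. The BMH-21 8 h libraries are the lowest of all groups for Snord22, Snora16a, Snora44, Snora61 and Snord99, and for Snord87 the 4 h libraries have the lowest mean.

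Genes beside the hosts did not all move with them. Rcc1, the exchange factor for the GTPase Ran, overlaps Snhg3 on the same strand with starts 81 bases apart, so reads could be shared between them. At 8 h it was lower in BMH-21 (-1.58, adjusted p = 1.8e-29) and in CX-5461 (-0.39, adjusted p = 8.6e-04, limma). Snhg3 fell further than Rcc1 in both inhibitors. Snhg3 minus Rcc1 was -2.85 ± 0.08 in control, -3.42 ± 0.05 at 8 h of BMH-21 and -3.01 ± 0.04 at 8 h of CX-5461 (SD, n = 3). Means at 2 and 4 h were -3.05 and -3.06 in BMH-21, and -3.08 and -3.09 in CX-5461. This difference was not tested. Slc3a2, an amino acid transporter subunit that starts 106 bases from Snhg1 on the other strand, was at -0.40 after 8 h of BMH-21 (adjusted p = 2.8e-04), -0.18 after centring (1.5e-04) and -0.01 with median ratios (0.9), against -1.29 for Snhg1.

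Zbtb37, a zinc finger gene that overlaps Gas5 on the other strand, was at -0.62 in BMH-21 at 8 h (adjusted p = 7.9e-05) and -0.13 in CX-5461 (adjusted p = 0.5, limma). Its calls followed the scaling: median ratios gave -0.23 for BMH-21 (adjusted p = 0.076), and centring gave -0.34 for CX-5461 (adjusted p = 0.011). Mcmdc2, a meiotic gene whose end overlaps Snhg6 on the other strand, was not called in any comparison with control as deposited. At 8 h of BMH-21 it was level with control as deposited (-0.00) and higher with median ratios (0.39, adjusted p = 2.0e-04). The kit was directional, but whether reads were counted by strand is not given in the sources used here, so reads of overlapping antisense genes could not be told apart.

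The genes most like each host over the 7 group means were found among 6593 tested genes whose means span at least 1 on the log2 scale. They were BC052040 for Gas5 (r = 0.999), Alg3 for Snhg1 (0.999), Rbmxl2 for Snhg3 (0.999), Micu3 for Snhg5 (0.997), Rab26os for Snhg6 (0.998), Sult6b1 for Snhg8 (0.991), B4galnt1 for Snhg11 (0.992) and Slc29a2 for Snhg12 (0.998). For the mean of the 8 the closest was 1500012F01Rik (0.998), the older symbol of Zfas1, which is on the list of other noncoding hosts, followed by Llgl1, Wdr31, Chd3os and Srpk1. With 7 points and this many candidates, the closest gene is picked by its high value, and the groups share their control and scaling.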

How the data were processed

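Poly(A) RNA of 21 libraries was sequenced from a directional kit, per the labels' protocols. The submitters' processing notes name Trim Galore 0.5.0, TopHat2 2.1.1, R 4.0.5, DESeq2 1.30.1, edgeR 3.32.1, limma 3.46.0 and mm10, with no role or order. The authors deposited log2 expression values, normalized with voom by the table's name. Reads were recovered by setting the minimum of a library to 0 reads with an offset of 0.5. All values then came out whole to within 1.7e-08. Because of the offset, a log2 difference understates the change of genes with few reads. Duplicate reads could not be removed.

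Group means of the log2 values were fitted to all 21 libraries with limma 3.58.1 (R 4.3.3), using a mean-variance trend and two-sided tests, with Benjamini-Hochberg adjustment over 14666 genes (log2 above 0 in at least 3 libraries) and a threshold of 0.05. A total of 6234 genes were set aside. The prior for the variances had 111.5 degrees of freedom (8.5 after centring) and the residuals 14, so as deposited the spread of a gene itself had little weight. For 291 genes its own variance was over 2 times the one used. Of the hosts, Snhg11 had the largest excess as deposited, with an own SD of 0.19 where 0.14 was used. For Snhg1, Snhg8 and Snhg12 the own SD was below the one used. The 11 comparisons were each inhibitor and time against control, BMH-21 against CX-5461 at each time, and 8 h against 4 h within each inhibitor. Alternatives were other filters, an offset of 5 reads, centring, median-ratio factors, no trend, voom weights, a replicate block and leaving out each library. The fit was tested on simulated reads.

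The members, lists and tests were chosen with earlier results of these data known. Named genes are the 8 hosts, the largest rise and fall of each list at 8 h of each inhibitor among called genes with no overlap between groups, the closest non-members by correlation, the snoRNA rows inside the hosts, and genes that overlap a host or start within 2000 bases of its start. Gene and snoRNA positions came from GENCODE M21 and promoter windows from RefSeq. Figures were drawn with matplotlib 3.10.9.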

Additional observations from a re-analysis of the deposited data

Results flagged for a closer look

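The change from 4 to 8 h differed between the inhibitors for all 8 hosts, by a test of the difference itself in the same limma fit, which was added after the values had been seen. The change in BMH-21 minus that in CX-5461 was -1.2523 for Gas5, -0.8711 for Snhg1, -1.4525 for Snhg3, -1.3013 for Snhg5, -0.8415 for Snhg6, -0.8385 for Snhg8, -1.1037 for Snhg11 and -0.8492 for Snhg12 on the log2 scale (adjusted p from 2.3e-13 for Snhg3 to 1.7e-05 for Snhg6), and 61.4% of all genes were called in this direction. Among the 4 groups in this test, those at 8 h carried the scaling factors farthest apart. After centring the values were -0.82, -0.43, -1.02, -0.86, -0.41, -0.40, -0.67 and -0.41 in the same order, all past the threshold, where 36.2% of all genes were called lower. With median ratios they ran from -0.90 (Snhg3) to -0.28 (Snhg8), and Snhg8 missed the threshold (adjusted p = 0.06), where 26.5% of all genes were called lower. Each of the 8 kept its call in all 12 fits that left out 1 library of the 4 groups.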

How the results depend on the processing

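Over 88 tests of single hosts and 1232 alternatives, 1133 kept their direction and their side of the threshold, 53 lost and 15 gained a call, and 31 turned in direction; the cause was not tested. The numbers called at 4 and 8 h against control, at 8 h between inhibitors and from 4 to 8 h of BMH-21 moved by no more than 1 host in any setting run. The number called at 2 h of CX-5461 (7) was 4 after centring, 3 with median ratios, 4 without a variance trend and 3 to 7 with 1 library left out. Between inhibitors it was 1 at 2 h (0) after centring and with median ratios, and at 4 h (2) it was 1 with no filter, 4 after centring, 5 with median ratios, 1 without a trend and 0 to 2 with 1 library left out. From 4 to 8 h of CX-5461 (7) it was 3 after centring, 4 with median ratios and 4 to 7 with 1 library left out. Under both scalings 1 of these, Snhg12, was called lower, and as deposited it was not called. The share of all genes called with median ratios is not given for this comparison, so no background stands beside the count of 4.

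Directions that turned were those of small differences or of the CX-5461 8 h libraries; ranges below are over fits with 1 library left out. Against control with median ratios, Snhg12 at 2 h of CX-5461 was 0.0063, Snhg11 at 4 h 0.0785 and Snhg8 at 8 h -0.0949. Snhg8 at 8 h was -0.2122 after centring, with a range of -0.0919 to 0.0630. Between inhibitors at 2 h, centring gave Snhg3 -0.0599 and Snhg8 -0.0172, and median ratios gave Snhg1 -0.0007, Snhg3 -0.0833 and Snhg8 -0.0406. Ranges there were -0.0432 to 0.0685 for Snhg3, -0.0919 to 0.0267 for Snhg5 and -0.1280 to 0.0147 for Snhg12. At 4 h they were -0.0122 to 0.1736 for Gas5 and -0.0514 to 0.1397 for Snhg1, which was -0.0232 with median ratios. Snhg11 from 4 to 8 h of BMH-21 was 0.0484 with median ratios, with a range of -0.2336 to 0.0075. From 4 to 8 h of CX-5461, centring and median ratios gave -0.1010 and -0.0903 for Snhg1, -0.0328 and -0.0221 for Snhg3, -0.0758 and -0.0651 for Snhg6, and -0.2679 and -0.2572 for Snhg12.

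At 2 h of CX-5461, Snora44 was 0.0260 with median ratios, and Snora61 and Snord99 were 0.0136 and 0.1354 after centring and 0.0524 and 0.1741 with median ratios; Snord99 ranged from -0.0840 to 0.1001. Mcmdc2 at 8 h of BMH-21 was 0.2115 after centring, 0.3909 with median ratios and 0.0003 with voom weights, ranging from -0.0903 to 0.1440. It was -0.0342 at 8 h of CX-5461 after centring, and ranged from -0.0437 to 0.1192 at 2 h of BMH-21 and from -0.0704 to 0.1164 at 4 h of CX-5461.

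With the replicate number as a block, 6 hosts were called at 2 h of CX-5461 in place of 7, and the count was the same in the other 10 comparisons. A pairing of the libraries by number was not seen, since in no comparison were all same-number correlations over 0.1 (lowest -0.25). With 3 libraries per group, this check could not exclude a weak or partial pairing. The lowest count of any host was 349 reads, for Snhg6 at 8 h of BMH-21. Snord87, with 5 reads in its lowest library, was below the filter and was not tested.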
